A study of Mus musculus with 2 samples.

Results

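The genes described here encode adhesion molecules that slow and hold leukocytes on vessel walls and the receptors that leukocytes use for it. They are 10 genes, Icam1, Icam2, Vcam1, Sele, Selp, Selplg, Itgal, Itgb2, Itga4 and Itgb1, matched by symbol to the 27998 genes listed in both matrices, and all 10 were found. The tissue was brain with orthotopic G422TN, a transplanted mouse glioma line described by its submitters as triple negative, in Kunming mice. The LTS library came from long-term survivors: mice that lived more than 100 days after combined therapy, received the tumour again in the other side of the brain and again lived more than 100 days. The control library came from untreated mice. Tissue was taken on day 7 after inoculation. For LTS mice the sources used here do not say which inoculation this day counts from, nor what the combined therapy was. Cells were collected from a Percoll layer that the protocol describes as holding immune cells, so the share of each cell type is not its share of the tissue. How many animals each library pools is not stated in those sources.

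Leukocytes leave the blood in steps. Selectins on activated endothelium (E-selectin from Sele, P-selectin from Selp) catch leukocytes through the glycoprotein PSGL-1, the product of Selplg. Integrins then arrest them: LFA-1, made of the Itgal and Itgb2 chains, binds ICAM-1 and ICAM-2, and VLA-4, made of the Itga4 and Itgb1 chains, binds VCAM-1. In brain vessels these molecules are known as the route of T cells and monocytes into inflamed tissue.

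Each group was 1 library, so nothing below has a replicate check and no p-value is given. Values are UMI counts summed over the cells of a class and scaled to the total UMIs of that class (CPM). The 95% intervals count sampling of UMIs alone and leave out variation among animals and cells, so they cover counting error only. The libraries held 149413534 UMIs (LTS) and 165796852 UMIs (control). Filtering kept 4835 LTS cells (median 18779 UMIs) and 8310 control cells (median 14890 UMIs), and 13 cell barcodes occurred in both. The cells fell into 23 clusters. The 6 classes with at least 20 cells in each library were a tumour cell-like pool (2564 LTS and 5193 control cells), endothelial cell-like (75 and 142), microglia-like (631 and 761), monocyte or macrophage-like (222 and 408), T cell-like (481 and 98) and B cell-like cells (74 and 24). Class names were rebuilt from markers, and the 10 genes were left out of the clustering. Of 10 tumour markers, 9 were at least 2-fold higher in the pool than in named host cells, and the pool held 0.891 CPM (LTS) and 0.959 CPM (control) of 4 Y-linked genes, against 94.0 to 196 CPM (LTS) and 80.7 to 119 CPM (control) in the other 5 classes. The tumour markers were chosen with earlier results of these data known, and clusters entered the pool only with low Y-linked RNA. Neither value is therefore a separate check of the pool. Free RNA was measured in empty droplets, which held a mean of 412 UMIs in LTS and 621 UMIs in control. Tumour marker transcripts reached 452 CPM (LTS) and 1491 CPM (control) in T cell-like cells and 300 CPM and 730 CPM in microglia-like cells, so tumour RNA differed between the libraries inside the host classes.

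All 10 genes lie on chromosomes of the mm10 build in GENCODE M21. Icam1 (ENSMUSG00000037405) spans chr9:21015985-21028817 on the plus strand and Vcam1 (ENSMUSG00000027962) spans chr3:116109949-116129688 on the minus strand. Sele (ENSMUSG00000026582, chr1:164048234-164057677) and Selp (ENSMUSG00000026580, chr1:164115264-164150026) lie close together on the plus strand. Antisense models overlap Icam1, Vcam1 and Selp, and Cerkl overlaps Itga4 on the other strand. The sources used here do not say whether counting used strand, so reads of these pairs may not be separable.

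NF-kB, a transcription factor that inflammatory cytokines activate, is known to induce Icam1 and Sele, and the letters GGNNNTTCC are a loose form of the DNA sequence it binds. RefSeq promoter windows (GRCm38.p6, 250 bases before to 50 bases after the start) were matched for 5 of the 10 genes, and the letters occurred on either strand in 4 of these 5, all but Itga4. They occurred in 18.5% of all 32851 windows, so a match is a description only. The windows of Icam1 (chr9:21015690-21015989, plus strand, 2 matches) and Sele (chr1:164047984-164048283, plus strand, 1 match) are shown because these inducible ligands had different distributions over cell classes. Capitals mark the matches, which begin at -153 and -84 from the start in Icam1 and at -145 in Sele.
Icam1: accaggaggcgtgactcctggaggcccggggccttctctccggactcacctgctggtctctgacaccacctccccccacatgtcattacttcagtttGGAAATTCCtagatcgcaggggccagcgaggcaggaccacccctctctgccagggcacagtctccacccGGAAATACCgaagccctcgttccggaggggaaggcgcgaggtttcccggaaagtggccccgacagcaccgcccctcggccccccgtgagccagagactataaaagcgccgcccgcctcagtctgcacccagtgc
Sele: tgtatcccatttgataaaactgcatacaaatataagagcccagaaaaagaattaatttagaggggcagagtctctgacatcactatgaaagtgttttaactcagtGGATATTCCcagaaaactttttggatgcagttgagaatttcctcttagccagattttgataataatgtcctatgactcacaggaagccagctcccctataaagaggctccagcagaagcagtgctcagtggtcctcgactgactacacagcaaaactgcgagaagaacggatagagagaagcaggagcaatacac

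No gene of the 10 was called as 2-fold different in any class. A gene was called when it reached 20 CPM in either library, its log2 ratio of LTS over control (pseudocount 5 CPM) was at least 1 in size and the counting interval of its fold excluded 1. Of the 10 genes the rule could be applied to 1 in the tumour cell-like pool and called 0, where it called 0.187% of all genes tested (0.0156% higher and 0.171% lower in LTS). It called 0 of 5 in endothelial cells, against 0.714% of all genes (0.219% higher, 0.495% lower), and 0 of 6 in microglia-like cells, against 0.575% (0.155% higher, 0.42% lower). It called 0 of 7 in monocyte or macrophage-like cells, against 2.29% (0.336% higher, 1.95% lower). It called 0 of 6 in T cell-like cells, against 11% (3.08% higher, 7.94% lower), and 0 of 7 in B cell-like cells, against 3.94% (0.556% higher, 3.39% lower). Genes under the CPM minimum were not tested, and in B cell-like cells Icam2 and Itgb2 had 0 control UMIs and intervals that include 1. Smaller differences whose counting interval excluded 1 are given below as folds. In both libraries Icam2 and Selp had their highest level in endothelial cells.

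**Figure D1:**
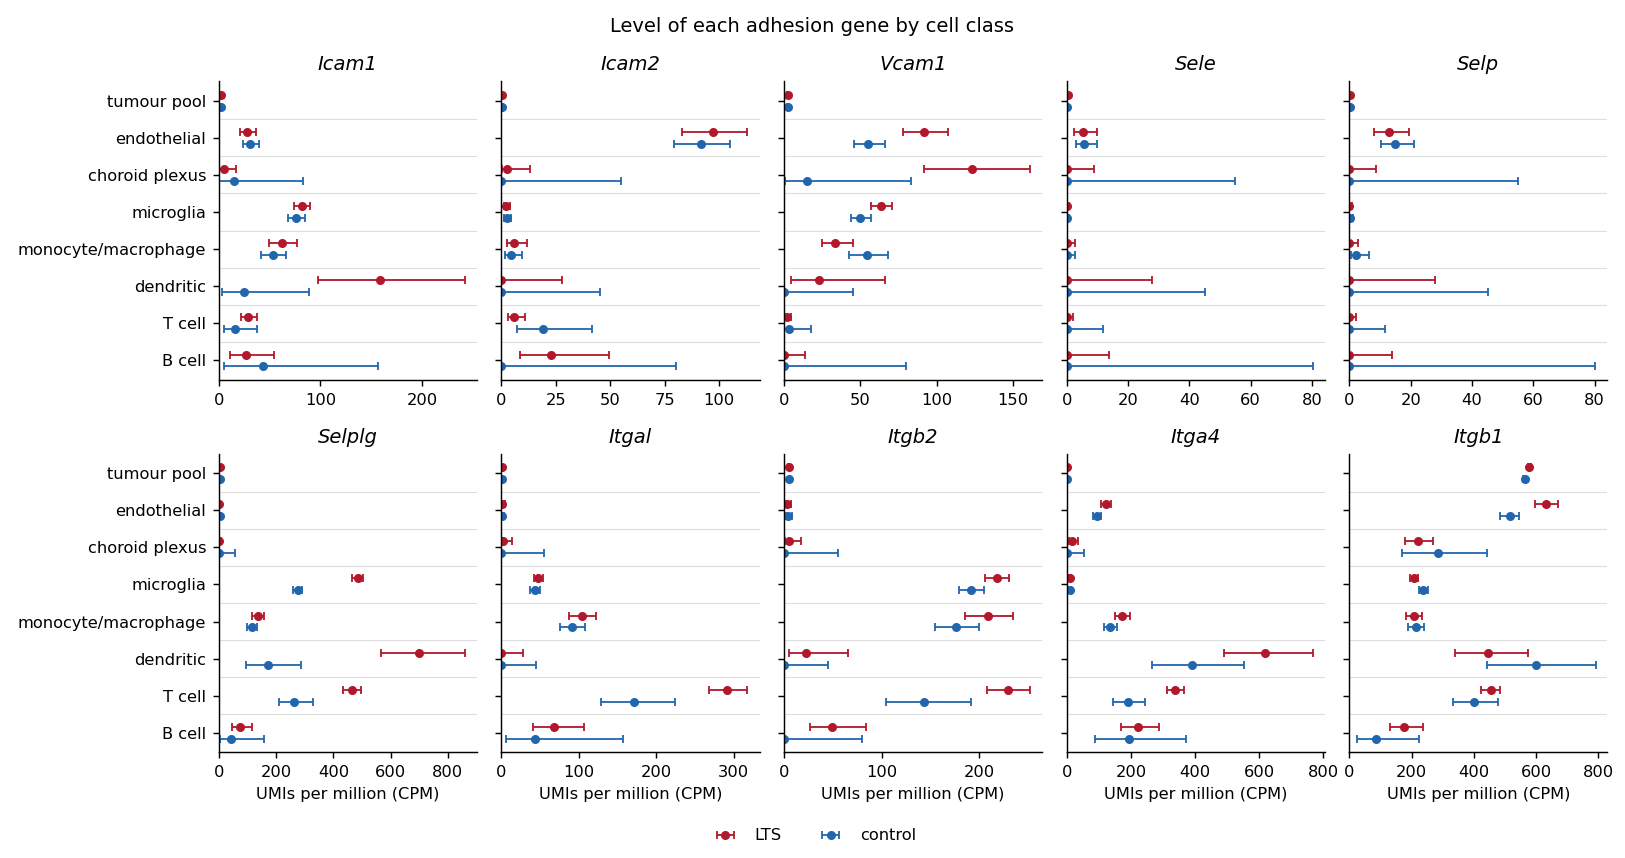
Each panel plots the summed level of 1 gene in CPM (horizontal axis, linear) in 8 cell classes, LTS above control, with exact Poisson 95% intervals. Icam2, Sele and Selp sat with endothelial cells, Selplg, Itgal and Itgb2 with leukocytes, and Itgb1 was found in every class. The dendritic class had 19 LTS and 18 control cells and choroid plexus 68 and 12, so their intervals are wide.

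Icam2 and Icam1 differed between the libraries by less than their counting error in endothelial cells. Icam2, a ligand that endothelium carries without stimulation, was at 96.9 CPM (82.8 to 113) in LTS against 91.4 CPM (79.0 to 105) in control endothelial cells, a fold of 1.06 (0.858 to 1.31). Icam1, the inducible ligand of LFA-1, was at 27.9 CPM (20.5 to 36.9) in LTS against 30.8 CPM (23.8 to 39.2) in control, a fold of 0.905 (0.611 to 1.33). Neither fold could be told from 1 at this depth. Endothelial cells held 70.5% (LTS) and 72.3% (control) of all Icam2 UMIs in kept cells, but 5.08% and 8.23% of those of Icam1.

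Vcam1, the ligand of VLA-4, was the endothelial ligand with the largest fold. It was at 91.7 CPM (78.0 to 107) in LTS against 55.0 CPM (45.5 to 65.9) in control endothelial cells, a fold of 1.67 (1.31 to 2.13). A single LTS cell carried 59 of its 158 LTS UMIs. Without the top cell of each library the levels were 58.6 CPM and 46.1 CPM, a fold of 1.27 (0.952 to 1.70) whose interval includes 1. The share of endothelial cells with a Vcam1 UMI after thinning each cell to 1000 UMIs was 6.67% (2.20 to 14.9) in LTS and 5.63% (2.46 to 10.8) in control, and 29.3% and 31.0% without thinning. The intervals of the thinned shares overlapped, and without the top cells the fold was smaller and could not be told from 1.

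The selectins were rare. Sele had 9 UMIs in 2 LTS cells, 7 of them in 1 cell, and 12 UMIs in 7 control cells. Its levels were 5.22 CPM (2.39 to 9.92) in LTS against 5.60 CPM (2.89 to 9.77) in control. Selp had 22 UMIs in 5 LTS cells and 32 UMIs in 17 control cells, at 12.8 CPM (8.0 to 19.3) and 14.9 CPM (10.2 to 21.1). The folds were 0.934 (0.347 to 2.41) for Sele and 0.856 (0.474 to 1.52) for Selp, and a difference within these intervals was not detectable at this depth. Without the top cell of each library the folds were 0.317 (0.0327 to 1.59) for Sele and 0.539 (0.240 to 1.13) for Selp. With each cell weighing the same, Sele was at 3.16 CPM in LTS against 8.62 CPM in control and Selp at 7.63 CPM in LTS against 33.0 CPM in control. In microglia-like cells Sele had 0 UMIs in both libraries and Selp 0 and 1, and in T cell-like cells both genes had 0 in both. Empty droplets held at most 0.193 CPM of either gene. The tumour cell-like pool held 76.3% (LTS) and 65.7% (control) of all Sele UMIs, at 0.272 CPM (0.182 to 0.390) and 0.208 CPM (0.132 to 0.312), from 29 and 23 cells with 1 UMI each.

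Endothelial cells with a UMI of Ackr1, a chemokine receptor that marks venules, the vessels where leukocytes leave the blood, had most of the Selp and Icam1 UMIs of the class in both libraries. There were 23 such cells in LTS and 60 in control. Selp was at 33.1 CPM (22 UMIs) in LTS cells with Ackr1 and at 0 in the 52 without it, against 34.3 CPM and 1.57 CPM in control cells, a control fold of 21.8 (5.53 to 188). Icam1 was 2.66-fold higher with Ackr1 in LTS (1.43 to 5.06) and 6.54-fold higher in control (3.46 to 13.4). Vcam1 was 1.60-fold higher with Ackr1 in LTS (1.15 to 2.21) and 5.69-fold higher in control (3.61 to 9.32). Sele split differently in the libraries: 2 of 9 LTS UMIs lay in cells with Ackr1 and the other 7 in 1 cell without it, against 11 of 12 control UMIs in cells with Ackr1. The LTS cell with 59 Vcam1 UMIs lies in the group without Ackr1, which held 79 of them in all. Icam2 differed less, by 1.54-fold in LTS (1.12 to 2.11) and 1.42-fold in control (1.07 to 1.90), and Itgb1 did not differ beyond its interval in either library (1.02-fold, 0.897 to 1.15, and 0.947-fold, 0.838 to 1.07). The cells with Ackr1 were also deeper, at medians of 31759 UMIs against 13779 UMIs in LTS and 13036 UMIs against 11134 UMIs in control, and the part of depth in this split was not tested.

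**Figure D2:**
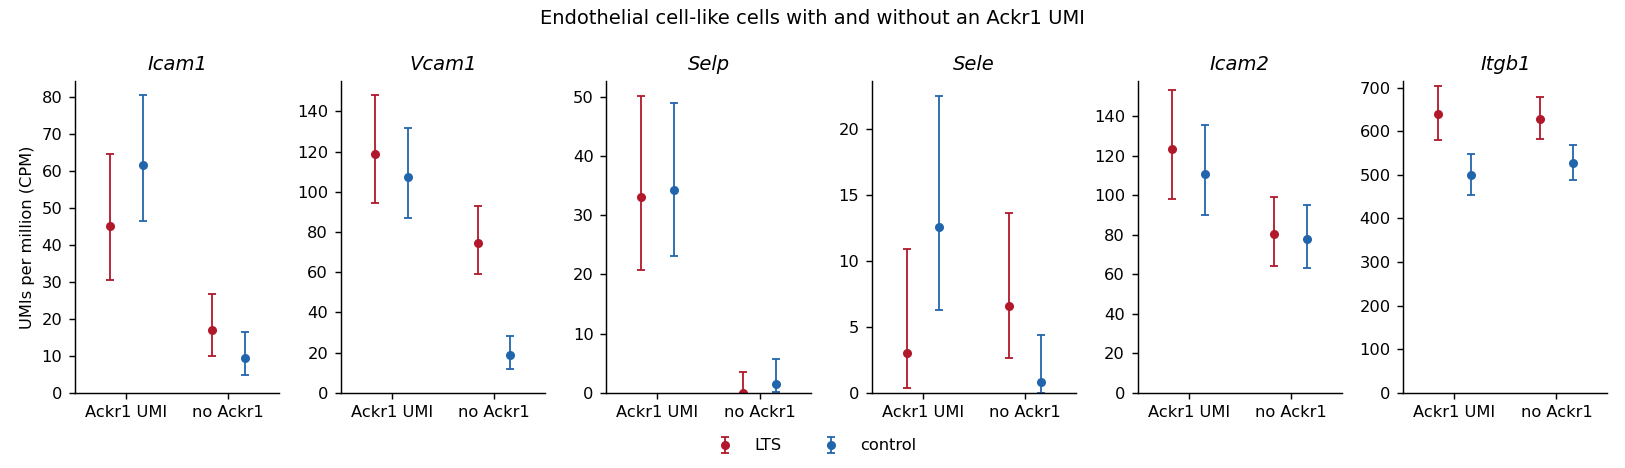
Levels in CPM (vertical axes, linear, from 0) of 6 genes in endothelial cell-like cells with (left of each panel) and without (right) an Ackr1 UMI, LTS left of control, with exact Poisson 95% intervals. Selp stood at 33.1 CPM in LTS against 34.3 CPM in control cells with Ackr1, and at 0 and 1.57 CPM in those without. Itgb1 stood at 499 CPM or more in all 4 groups.

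Vcam1 and Icam1 were not confined to vessels. Endothelial cells held 17.7% (LTS) and 16.01% (control) of the Vcam1 UMIs of kept cells, microglia-like cells 38.2% and 30.8%. The tumour cell-like pool, with many cells at the low level given below, held 29.0% in LTS and 34.6% in control. Choroid plexus epithelium-like cells, which make cerebrospinal fluid and border it, had Vcam1 at 123 CPM (91.8 to 161) in LTS, from 52 UMIs in 31 of 68 cells with at most 3 UMIs in any cell. Only 12 such cells with 1 Vcam1 UMI were found in control, so the class was not compared. In LTS choroid plexus cells the endothelial genes Icam2, Sele and Selp had 1, 0 and 0 UMIs.

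In microglia-like cells, the resident macrophages of the brain, Vcam1 was at 63.8 CPM (57.2 to 70.9) in LTS against 49.9 CPM (43.6 to 56.9) in control, a fold of 1.28 (1.08 to 1.52). Icam1 was at 81.7 CPM (74.3 to 89.8) and 75.9 CPM (68.1 to 84.3), a fold of 1.08 (0.934 to 1.24). In monocyte or macrophage-like cells Vcam1 ran the other way, at 33.6 CPM (24.6 to 44.9) in LTS against 54.2 CPM (42.7 to 67.9) in control, a fold of 0.620 (0.420 to 0.906). That difference was not tested between the classes. The share of these cells with a Vcam1 UMI after thinning was 3.15% (1.28 to 6.39) in LTS and 5.15% (3.21 to 7.76) in control, with overlapping intervals. Empty droplets held Vcam1 at 7.61 CPM (LTS) and 5.00 CPM (control), well below both classes, but the folds moved when free RNA was taken off. With the UMIs of 1 empty droplet taken off per cell, the Vcam1 fold was 1.21 in microglia-like and 0.545 in monocyte or macrophage-like cells. With the free share read from genes of other classes taken off, these folds were 1.10 and 0.479.

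Tumour cell-like cells had little of either ligand. Vcam1 was at 2.43 CPM (2.14 to 2.74) in LTS against 2.31 CPM (2.03 to 2.61) in control, and Icam1 at 1.85 CPM (1.60 to 2.12) and 1.97 CPM (1.72 to 2.25). These levels are below those of empty droplets, where Icam1 stood at 7.79 CPM (LTS) and 4.67 CPM (control). One cluster of the pool, cluster 12, stood apart for Vcam1. It is led by the interferon-induced genes Ifit1, Ifi44 and Cxcl10 and held 128 LTS and 220 control cells. Vcam1 was at 9.72 CPM in its LTS cells and 9.21 CPM in its control cells, from 49 and 42 UMIs. That was 5.83-fold (3.65 to 9.46) above cluster 0, the largest cluster of the pool, in LTS and 4.47-fold (2.80 to 7.18) in control. Icam1 in cluster 12 was 2.60-fold (1.36 to 4.85) above cluster 0 in LTS and 3.19-fold (1.80 to 5.62) in control, and Itgb1 1.08-fold and 1.05-fold. Against cluster 1, also of the pool, Vcam1 in cluster 12 was 4.00-fold (2.53 to 6.39) in LTS and 4.93-fold (2.92 to 8.52) in control. Icam1 was 1.26-fold (0.689 to 2.21) against cluster 1 in LTS, an interval that includes 1, and 2.20-fold (1.251 to 3.84) in control. Itgb1 was lower than in cluster 1, at 0.940-fold (0.901 to 0.980) in LTS and 0.905-fold (0.865 to 0.946) in control. The leukocyte gene Itgb2 was also above cluster 0 in cluster 12, 2.08-fold (1.29 to 3.29) in LTS and 1.70-fold (1.04 to 2.71) in control. Selplg was 2.23-fold (1.32 to 3.71) in LTS and 1.28-fold (0.626 to 2.45) in control. Y-linked RNA stood at 1.67 CPM in cluster 12, against 0.481 to 1.12 CPM in the other clusters of the pool. Empty droplets held Vcam1 at 7.61 CPM (LTS) and 5.00 CPM (control), and the part of free RNA or host cell RNA in these levels was not tested.

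**Figure D3:**
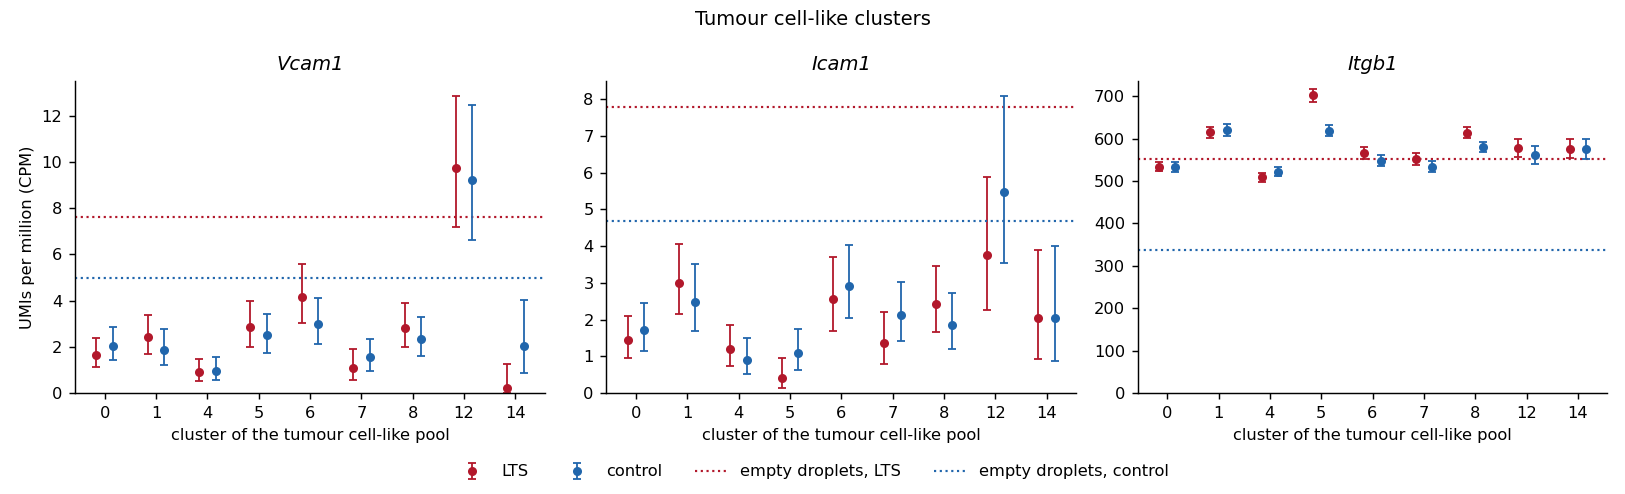
Levels in CPM (vertical axes, linear, from 0) of Vcam1, Icam1 and Itgb1 in the 9 clusters of the tumour cell-like pool, LTS left of control, with exact Poisson 95% intervals and the empty-droplet level of each library as a dotted line. Cluster 12 is highest for Vcam1 in both libraries, at 9.72 CPM and 9.21 CPM, and Itgb1 lies between 509 CPM and 701 CPM in all 9 clusters.

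Itgb1, the beta chain of VLA-4 and of many receptors for extracellular matrix, was the one gene of the 10 with a clear level in tumour cell-like cells, at 578 CPM (573 to 582) in LTS against 563 CPM (559 to 567) in control, a fold of 1.03 (1.02 to 1.04). The pool held 91.5% (LTS) and 92.1% (control) of all its UMIs. Selplg, Itgb2 and Itga4 were below their empty-droplet levels in the pool in both libraries. Selplg had 2.31 CPM in LTS against 2.86 CPM in control there (0.807-fold, 0.680 to 0.956), Itgb2 had 4.51 CPM in LTS against 5.28 CPM in control (0.854-fold, 0.755 to 0.965), and Itga4 had 0.675 CPM in LTS against 0.434 CPM in control (1.56-fold, 1.06 to 2.29). Among the clusters of the pool the Itgb1 level ran between 509 and 701 CPM in LTS and between 522 and 620 CPM in control, highest in LTS cluster 5. Endothelial cells had 633 CPM (596 to 671) in LTS against 515 CPM (485 to 547) in control, a fold of 1.23 (1.13 to 1.34). Microglia-like cells had 207 CPM (195 to 219) and 237 CPM (223 to 252), a fold of 0.872 (0.801 to 0.949). Empty droplets held Itgb1 at 552 CPM (LTS) and 337 CPM (control), more than microglia-like cells did, and over the settings tried, 2 of which take off free RNA, its log2 ratio stayed between 0.17 and 0.41 in endothelial and between -0.25 and -0.13 in microglia-like cells. Itga4, the alpha chain of VLA-4, was also found in endothelial cells, at 121 CPM (105 to 139) in LTS against 92.8 CPM (80.3 to 107) in control, a fold of 1.31 (1.07 to 1.60) that turned to a log2 ratio of -0.055 when each cell weighed the same.

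Selplg, the gene of PSGL-1, was found in every leukocyte class and was low in the others. Microglia-like cells had 485 CPM (466 to 504) in LTS against 276 CPM (261 to 291) in control, a fold of 1.76 (1.64 to 1.88). After thinning, a UMI was found in 46.9% (43.0 to 50.9) of the class in LTS against 25.9% (22.8 to 29.2) in control, against 0.390% and 0.154% of tumour cell-like cells. The class differed in make-up between the libraries, since 223 of the 631 LTS cells but 7 of the 761 control cells fell in cluster 15 and all others in cluster 3. Selplg is among the 10 leading genes of cluster 15, although it was left out of the clustering. Selplg was at 1540 CPM in LTS cells of cluster 15 and at 327 CPM in those of cluster 3, a fold of 4.71 (4.36 to 5.10). The 7 control cells of cluster 15 had 986 CPM, against 273 CPM in control cells of cluster 3. LTS cells of cluster 15 were also shallower, at a median of 2973 UMIs against 10981 UMIs. Within cluster 3 the fold of LTS over control was 1.196 (1.11 to 1.29). A cluster found mostly in 1 library can be that library or a cell state, which cannot be told apart here.

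Other members separated these microglia-like clusters in the opposite direction. In LTS, Itgal was at 10.05 CPM in cluster 15 and 52.7 CPM in cluster 3, a fold of 0.191 (0.0759 to 0.399), and Vcam1 at 33.0 CPM and 68.4 CPM, a fold of 0.483 (0.302 to 0.737). Icam1 (1.02-fold, 0.761 to 1.35) and Itgb2 (1.14-fold, 0.962 to 1.34) did not differ beyond their intervals. Over the whole class Itgb2, the shared beta chain of the leukocyte integrins, was at 218 CPM (206 to 231) in LTS against 192 CPM (180 to 205) in control, a fold of 1.13 (1.04 to 1.24), and Itgal at 47.1 CPM (41.5 to 53.3) and 43.1 CPM (37.3 to 49.6). Itga4 was low in microglia-like cells, at 11.04 CPM (8.40 to 14.2) and 10.8 CPM (7.97 to 14.2).

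Monocyte or macrophage-like cells, which come from the blood, carried both integrins. Itga4 was at 173 CPM (151 to 196) in LTS against 136 CPM (117 to 156) in control, a fold of 1.27 (1.05 to 1.55). With the UMIs of 1 empty droplet taken off per cell this fold was 1.12. The free share read from genes of other classes was 26.1% of the UMIs in LTS and 42.0% in control. With that share taken off, the fold of Itga4 was 1.02. Itgal was at 104 CPM (87.4 to 122) and 90.6 CPM (75.6 to 108), Itgb2 at 209 CPM (186 to 235) and 176 CPM (155 to 200), and Selplg at 135 CPM (116 to 156) and 115 CPM (97.8 to 134). Icam1 was at 62.1 CPM (49.6 to 76.8) and 52.8 CPM (41.5 to 66.3) and Itgb1 at 207 CPM (183 to 232) and 213 CPM (189 to 238). The folds of these 5 genes could not be told from 1. Ptprc, the leukocyte gene of CD45, had a fold of 1.16 (1.05 to 1.29) in the same sums. Compared with microglia-like cells, Itga4 was thus at 173 CPM against 11.04 CPM in LTS and at 136 CPM against 10.8 CPM in control, while Itgb2 lay close in both classes.

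**Figure D4:**
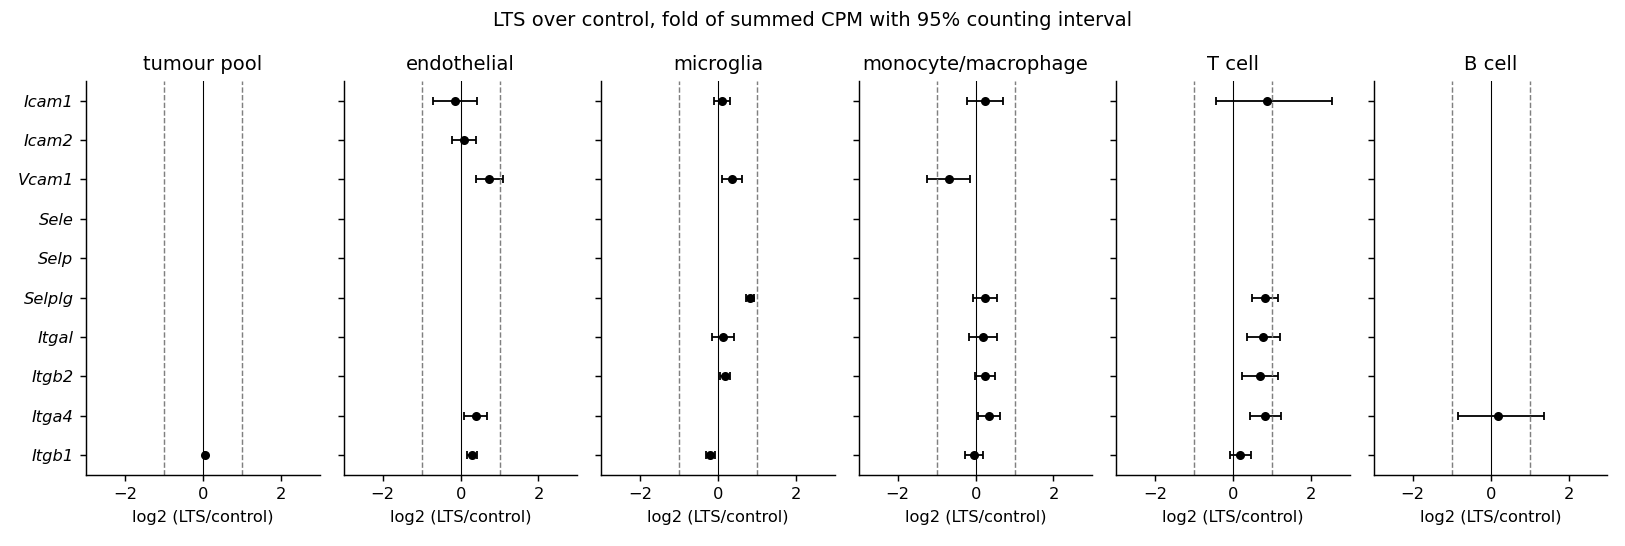
Fold of LTS over control for each gene (rows) in each of 6 classes (panels) on a log2 axis, with 95% counting intervals and dashed lines at 2-fold in either direction. Only genes that reached 20 CPM in either library and 5 UMIs in both are drawn. No point lies beyond a dashed line.

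T cell-like cells had the receptors in full, and 4 of them at higher levels in LTS than in control, all under 2-fold. The cluster behind this class also had 5 NK cell markers at 2-fold or more the level elsewhere, and Gzma and Nkg7 among its leading genes. Its cells were not required to have a Cd3 UMI. The make-up of the class differed between the libraries, as given below for Cd8 cells, and its part in these folds was not tested. Selplg was at 465 CPM (434 to 497) in LTS against 264 CPM (210 to 327) in control, a fold of 1.76 (1.40 to 2.23). Itgal was at 292 CPM (268 to 317) and 172 CPM (129 to 224), a fold of 1.70 (1.28 to 2.29). Itgb2 was at 229 CPM (208 to 252) and 143 CPM (104 to 191), a fold of 1.60 (1.18 to 2.23). Each of these genes stood higher in LTS than in control, with counting intervals that do not overlap. Itga4 was at 338 CPM (312 to 366) in LTS against 191 CPM (146 to 246) in control, a fold of 1.77 (1.36 to 2.35). Itgb1 was at 454 CPM (424 to 485) and 401 CPM (334 to 477), a fold of 1.13 (0.939 to 1.38) whose interval includes 1. The ligand genes were low in these cells: Icam1 had 54 UMIs in LTS (29.1 CPM, 21.8 to 37.9) and 5 in control (15.9 CPM, 5.16 to 37.1), and Icam2 had 11 and 6.

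The size of these folds depended on how free RNA was treated. Ptprc, which all leukocytes express, had a fold of 1.54 (1.32 to 1.80) in the same cells, at 913 CPM in LTS against 594 CPM in control. With the UMIs of 1 empty droplet taken off per cell the folds of Selplg, Itgal, Itgb2 and Itga4 were 1.46 to 1.60. With the free share read from genes of other classes, which came to 24.0% of the UMIs in LTS and 57.7% in control T cell-like cells, they were 1.04 to 1.08. In the 318 LTS and 48 control cells with a Cd3 UMI and no C1q UMI, which microglia express, the fold of Selplg was 1.54 (1.12 to 2.18) and that of Itgb2 1.30 (0.837 to 2.10). Median-of-ratios scaling moved the log2 ratio of all genes in this class by 0.24, and Selplg and Itga4 then passed 2-fold. The median log2 ratio of the 6 genes of the 10 that were tested was 0.73, beside -0.16 over all 6915 genes tested.

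**Figure D5:**
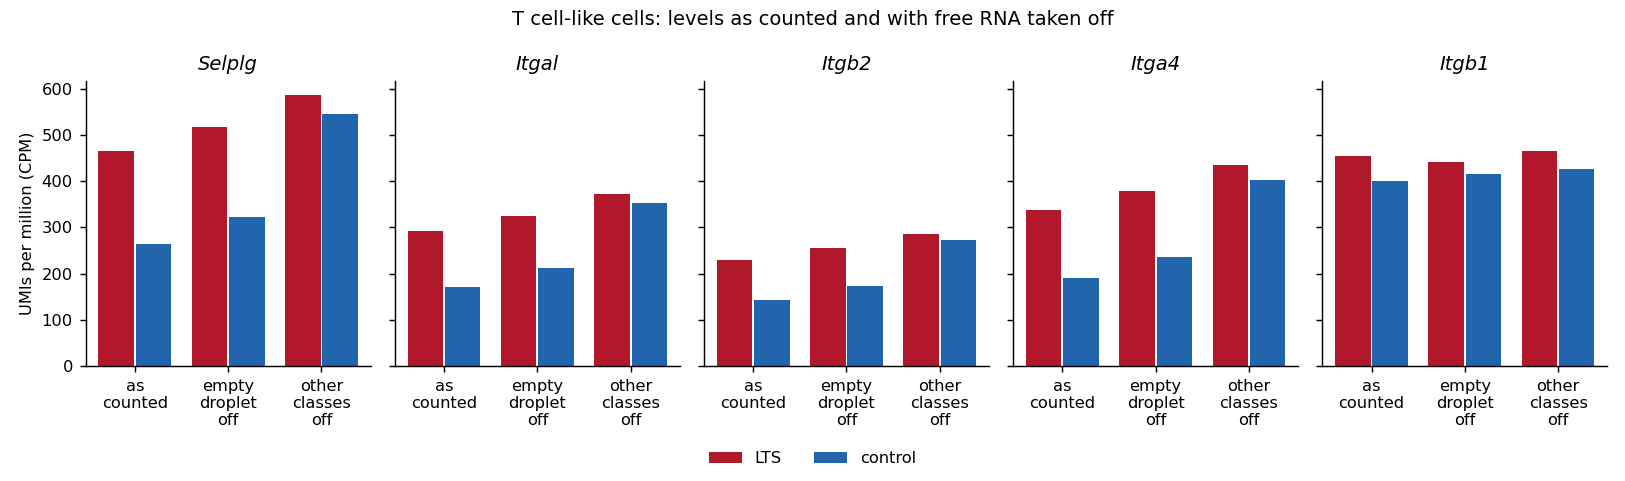
Levels in CPM (vertical axis, linear, from 0) of 5 receptor genes in T cell-like cells, LTS bars left of control bars, as counted, with 1 empty droplet's RNA taken off per cell, and with the free share read from genes of other classes taken off. For Itga4 the bars stand at 338 and 191 CPM as counted and at 435 and 402 CPM in the last pair.

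Shares of cells overlapped more than levels. After thinning, Selplg was found in 40.1% (35.7 to 44.7) of T cell-like cells in LTS against 24.5% (16.4 to 34.2) in control, Itgal in 27.0% (23.1 to 31.2) and 16.3% (9.63 to 25.2), Itgb2 in 21.8% (18.2 to 25.8) and 14.3% (8.04 to 22.8) and Itga4 in 27.9% (23.9 to 32.1) and 23.5% (15.5 to 33.1). Of these 4 genes, only the intervals of Selplg did not overlap. In tumour cell-like cells, which should lack these genes, the thinned shares were at most 0.390% in LTS and 0.558% in control. Both chains of LFA-1 were found together in 178 of 481 in LTS (37.0%, 32.7 to 41.5) against 14 of 98 in control (14.3%, 8.04 to 22.8), and both chains of VLA-4 in 39.1% (34.7 to 43.6) and 20.4% (12.9 to 29.7). These pairs were counted without thinning, at median depths of 3235 and 2121 UMIs.

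Subsets of the LTS T cell-like cells differed in these receptors. There were 264 LTS cells with a UMI of Cd3 and of Cd8, the co-receptor of cytotoxic T cells, and none of Cd4, and 95 with Cd3 and Cd4, which marks helper T cells, and no Cd8. Selplg was at 595 CPM in the LTS Cd8 cells and 317 CPM in the LTS Cd4 cells, a fold of 1.88 (1.57 to 2.25). Itgb1 ran the other way, at 347 CPM and 565 CPM, a fold of 0.615 (0.523 to 0.723). Icam1 was at 42.6 CPM and 14.1 CPM, from 41 and 7 UMIs, a fold of 3.03 (1.35 to 8.0), and Itga4 at 354 CPM and 289 CPM, a fold of 1.22 (1.005 to 1.50). Itgal (0.938-fold, 0.765 to 1.15) and Itgb2 (1.18-fold, 0.935 to 1.48) did not differ beyond their intervals. Control held 20 Cd8 and 17 Cd4 cells, and there the folds of Selplg (1.203, 0.632 to 2.31), Itgb1 (1.27, 0.780 to 2.08) and Itga4 (1.53, 0.716 to 3.37) could not be told from 1. Icam1 had 0 UMIs in the control Cd8 cells and 3 in the control Cd4 cells.

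Between the libraries, the Cd8 cells had Selplg at 595 CPM in LTS against 261 CPM in control (2.28-fold, 1.50 to 3.63). Itgb2 was at 260 CPM in LTS Cd8 cells and, from 7 UMIs, at 79.5 CPM in control Cd8 cells (3.27-fold, 1.56 to 8.21). Itgal was at 283 CPM (272 UMIs) in LTS against 182 CPM (16 UMIs) in control Cd8 cells. Itga4 was at 354 CPM (341 UMIs) against 216 CPM (19 UMIs), and Itgb1 at 347 CPM (334 UMIs) against 454 CPM (40 UMIs). Counting intervals of the folds of Itgal, Itga4 and Itgb1 are not given here, so no direction is read from them. No free RNA was taken off these levels, and the share of all genes past 2-fold in the subset is not given here. Cells with Cd3 and neither co-receptor had Selplg at 318 CPM in LTS against 315 CPM in control, a fold of 1.01 (0.667 to 1.56). Cd4 cells had it at 317 CPM (158 UMIs) in LTS against 217 CPM (20 UMIs) in control. Whether the fold differs between subsets was not tested. Cd8 cells made up 264 of 481 LTS and 20 of 98 control T cell-like cells. In the T cell-like class Vcam1 had 3 UMIs in LTS and 1 in control.

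B cell-like cells had few UMIs. Itga4 was the best covered, at 222 CPM (169 to 286) in LTS against 196 CPM (89.4 to 371) in control, from 59 and 9 UMIs, a fold that could not be told from 1. Itgb2 had 13 UMIs in LTS and 0 in control, where a count of 0 allows up to 3 UMIs. Selplg had 20 and 2 UMIs, Itgal 18 and 2 and Itgb1 47 and 4. Scaling moved the log2 ratio of all genes in this class by 0.46. The 19 LTS and 18 control conventional dendritic cell-like cells, led by Ccr7 and Ccl22, were too few to compare. They had Itga4 at 618 CPM (491 to 767) and 391 CPM (267 to 552) and Selplg at 701 CPM (565 to 858) and 171 CPM (93.5 to 287). Icam1 had 21 UMIs in the LTS cells (158 CPM, 97.9 to 242) and 2 in the control cells. Itga4 was found in all 19 LTS cells. Itgal had 0 UMIs in these cells in both libraries, which allows up to 22.6 CPM in LTS and 36.6 CPM in control (3 UMIs), and Itgb2 had 3 UMIs (22.6 CPM, 4.66 to 66.0) and 0.

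The other genes of leukocyte adhesion were read from 6 lists, of which 95 genes were in the matrices: vascular ligands, integrin chains, leukocyte receptors, integrin activators, enzymes of selectin ligand synthesis, and inputs of NF-kB and cytokines. By the same rule 0 of 38 tested were called in the tumour cell-like pool, 0 of 47 in endothelial cells and 0 of 51 in monocyte or macrophage-like cells. Of all genes tested it called 0.187%, 0.714% and 2.29% in these classes. In endothelial cells the median log2 ratio of the 12 tested vascular ligands was 0.30 with 10 above 0, beside -0.02 over all 6864 genes. Pecam1, Cdh5, Esam and Plvap of this list are also markers that name the class. The 14 endothelial markers summed to 7159 CPM in LTS against 5468 CPM in control endothelial cells. Whether the ligands differed apart from these markers was not tested. In microglia-like cells 1 of 44 was called, in a class where 0.575% of all genes were. It was Cd34, a sialomucin that can carry selectin ligands, at 31.6 CPM in LTS against 10.8 CPM in control (2.93-fold, 2.12 to 4.12). All 14 tested inputs of NF-kB and cytokines were above 0 there with a median of 0.23 and none called, beside a median of -0.02 over all 6432 genes. The 3 tested vascular ligands had a median of -0.09 there, with 1 above 0. Microglia-like cells included 223 LTS but 7 control cells of cluster 15. Their free share, read from genes of other classes, was 15.9% in LTS and 28.2% in control. The part of either in the Cd34 fold and in these medians was not tested. In T cell-like cells the same lists ran lower: the 14 tested inputs of NF-kB and cytokines had a median of -0.47 with 3 above 0, and the 5 tested vascular ligands one of -0.78 with 1 above 0, beside -0.16 over all genes. The free share of these cells, read from genes of other classes, was 24.0% in LTS and 57.7% in control. Its part in these medians was not tested.

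In T cell-like cells 14 of 58 were called, 7 higher and 7 lower, in a class where 11% of all genes were. With median-of-ratios scaling it was 10 higher and 2 lower, and with free RNA taken off by genes of other classes 3 higher and 8 lower. The share of all genes called under these settings is not given here. Itgae, the chain that pairs with Itgb7 to bind E-cadherin, had 171 CPM in LTS T cell-like cells and 22.3 CPM in control (7.67-fold, 3.68 to 19.2), and 1 control cell held 42.9% of its 7 control UMIs. Cd226, an activating receptor for nectin-family ligands, was at 139 CPM and 50.9 CPM (2.74-fold, 1.66 to 4.87), and Itga1, a collagen-binding chain, at 52.2 CPM and 19.1 CPM (2.74-fold, 1.21 to 7.64). The calls of Cd226 and Itga1 ended with each cell weighing the same and with free RNA taken off by genes of other classes, and that of Itgae held in every setting tried for all genes. The lowest ratios were those of Fermt2, a kindlin of cells that adhere to matrix, at 11.3 CPM and 38.1 CPM, Ifngr2, a chain of the interferon gamma receptor, at 11.3 CPM and 35.0 CPM, and Itga5, the fibronectin-binding chain, at 20.99 CPM and 54.0 CPM. Those of Fermt2 and Itga5 ended with free RNA taken off by genes of other classes, that of Itga5 also with median-of-ratios scaling, and that of Ifngr2 with barcodes from 500 UMIs. Fermt2 and Itga5 stood at 59.7 and 87.2 CPM in LTS and at 79.2 and 62.3 CPM in control empty droplets, above their level in the T cell-like cells of each library. In B cell-like cells 3 of 55 were called, in a class where 3.94% of all genes were. Among them Rasgrp1 (26 and 0 UMIs, at least 1.50-fold higher with 3 UMIs allowed in control) and Itgb4 (0 and 2 UMIs) rested on small counts.

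The genes whose levels ran most like 7 of the members over 18 class and library profiles are given as a description. For Icam1 they were H2-Q4, Gbp5 and Tap1 (Pearson r 0.881 to 0.899), for Icam2 Pglyrp1, Vwf and Adgrl4 (0.893 to 0.913) and for Vcam1 Dusp3, Tmem256 and F11r (0.823 to 0.865). For Selplg they were H2-T23, Bcl2a1b and B2m (0.928 to 0.935) and for Itgal Pik3cd, Sla and Shisa5 (0.951 to 0.956). Itga4 ran most like 4930523C07Rik, Mif4gd and St8sia4 (0.897 to 0.900) and Itgb1 most like Peak1, Rwdd1 and Egln1 (0.917 to 0.927). The profiles of a library share its depth and free RNA.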

How the data were processed

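Single cells of brain tissue with G422TN glioma were counted in 1 LTS and 1 control library, after digestion, a 40 µm filter and a Percoll step at the 70% to 37% interphase, per the labels' protocols. The deposited values are raw UMI counts for each gene in each barcode, produced by Cell Ranger 4 per the file headers. The submitters' processing notes name mm10 as the build. No source used here names the annotation release. Both matrices list 6794880 barcodes, so cells were called here.

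Barcodes with at least 1000 UMIs, at least 300 genes and at most 15% mitochondrially encoded UMIs were kept, which removed 605 of 5440 LTS and 817 of 9127 control barcodes. Scrublet marked 85 LTS cells and 1 control cell. It was taken not to have worked in control, so none was removed, and a cluster with a median doublet score over 0.2 was left unnamed. Counts were scaled to 10000 per cell, log-transformed, and clustered on 2000 variable genes without the 10 genes or the adhesion lists (30 components, 15 neighbours, Leiden resolution 1) with scanpy 1.11.5 and leidenalg 0.10.2 under python 3.11.15. Intervals used scipy 1.17.1. A cluster was named when at least 3 markers of a class were in 10% of its cells at 2-fold the level elsewhere. Low-UMI clusters without an own marker among their top 10 genes stayed unnamed (685 LTS and 1640 control cells in all unnamed clusters). Clusters with no class name and under 10% of the Ptprc and Y-linked levels of immune clusters formed the tumour cell-like pool.

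Counts were summed per class and library. Intervals are exact Poisson for levels, exact Clopper-Pearson for shares and exact conditional binomial for folds, all at 95%. Shares came from cells thinned to 1000 UMIs, which left out no cell. Empty droplets were barcodes within 0.75 to 1.25 times the mode of each library's plateau (410 UMIs in LTS, 624 UMIs in control). The ratio and interval code was tested on simulated data. Named genes are all 10 members, and per class at most the 3 largest and 3 smallest ratios among called genes of the adhesion lists, and the 3 genes most correlated with each member over the class profiles. Some genes that this rule names are not reported here. The members, lists and tumour markers were chosen with earlier results of these data known. The splits by Ackr1, Cd4 and Cd8, and the clusters singled out, were chosen after their values were seen. Alternatives tried were other UMI and mitochondrial thresholds, scalings, weights, pseudocounts, minimums, clusterings and 2 ways of taking off free RNA.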

Additional observations from a re-analysis of the deposited data

Results flagged for a closer look

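Members that reached 20 CPM and whose counting intervals excluded 1 in opposite directions in different classes were set side by side, and the difference between classes was not tested, since each group is 1 library. Itgb1 had log2 ratios of LTS over control of 0.037 in the tumour cell-like pool, 0.29 in endothelial cells and -0.19 in microglia-like cells. Its level in empty droplets was 552 CPM in LTS against 337 CPM in control, and over the settings tried, 2 of which take off free RNA, the ratio lay between -0.052 and 0.17 in the pool, between 0.17 and 0.41 in endothelial and between -0.25 and -0.13 in microglia-like cells. Vcam1 had log2 ratios of 0.69 in endothelial cells, 0.32 in microglia-like cells and -0.62 in monocyte or macrophage-like cells. The endothelial value was 0.32 without the cell with most Vcam1 UMIs in each library.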

How the results depend on the processing

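No paired analysis was possible because each group holds 1 library, and no replicate could be left out. The count of the 10 genes past 2-fold was 0 in every class as reported. It became 1 in T cell-like cells with at least 2000 UMIs (Icam2, lower in LTS), 2 in T cell-like (Selplg, Itga4) and 1 in B cell-like cells (Itgb1) with median-of-ratios scaling, 3 in B cell-like cells at resolution 2 (Itgb2, Itga4, Itgb1) and 1 in microglia-like cells (Selplg) with each cell weighing the same. For the other adhesion genes, with 0 in endothelial and monocyte or macrophage-like, 1 in microglia-like, 14 in T cell-like and 3 in B cell-like cells as reported, it became 1 in monocyte or macrophage-like cells with at least 500 UMIs and with no CPM minimum (Itgae both times), 10 in B cell-like cells at resolution 2, and 1 in endothelial (St3gal4), 2 in microglia-like (Cd34, Gcnt1) and 9 in T cell-like cells with equal weight. With free RNA taken off by genes of other classes it was 5 in endothelial and 1 in monocyte or macrophage-like cells, and with a pseudocount of 1 CPM it was 1 in endothelial cells (Sharpin). The share of all genes called under each of these settings is not given here. Whether the counts of the 10 genes or of the other adhesion genes exceed that share therefore cannot be judged. Of the 32 gene and class pairs compared, 15 changed sign under at least 1 setting, 12 of them with an interval that included 1 as reported. The 3 whose interval excluded 1 were endothelial Itga4, at -0.055 with equal weight, and Itgb1 in the tumour cell-like pool at -0.052 and Itgb2 in microglia-like cells at -0.020 with free RNA taken off by genes of other classes. The cause was not tested. The log2 ratios in T cell-like cells ran over the settings from 0.10 to 1.04 for Selplg, 0.07 to 0.98 for Itgal, 0.06 to 0.90 for Itgb2 and 0.11 to 1.04 for Itga4, all above 0, and that of Vcam1 in monocyte or macrophage-like cells from -0.98 to -0.15. No B cell-like cluster was compared at 500 or 2000 UMIs. Removal of 1 empty droplet's RNA per cell and the restriction to cluster 3 were chosen after seeing the data. Sele and Selp are limited by depth: at 9 and 12 UMIs, and 22 and 32 UMIs, their counting intervals span more than 2-fold.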
